A study of Mus musculus with 2 samples.

Results

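The genes described here are the AP-1 subunits of the Fos, Jun and small Maf families: Fos, Fosb, Fosl1, Fosl2, Jun, Junb, Jund, Maff, Mafk and Mafg. They were chosen by name, and every probe set annotated to exactly 1 of these symbols was taken, which gave 15 probe sets for 10 genes out of 34945 probe sets for 18193 genes with 1 symbol on the array. All 15 were of the plain _at kind, which Affymetrix designed to read a single transcript. Total RNA came from Neuro2a, a mouse neuroblastoma cell line, transfected with a control siRNA of no specific target in 1 group and, in the other, with one directed at Tmem132a (mKIAA1583), a gene of a family of membrane proteins. Each of the 2 groups was 1 sample on 1 Affymetrix Mouse Genome 430 2.0 array, so no difference below has a replicate error or a test, and the number of arrays limits the precision. The siRNA sequences, dose and time after transfection are not given in the sources used here, and both groups share the transfection.

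AP-1 is a family of dimeric transcription factors whose subunits hold a basic region that contacts DNA and a leucine zipper that pairs them. Jun proteins pair with each other or with Fos proteins, and Fos proteins need a Jun partner. These dimers bind the AP-1 site TGA(C/G)TCA, searched for below more broadly as TGANTCA, where N is any base. With ATF partners, they also bind the cAMP response element TGACGTCA. Several subunit genes, Fos and Junb among them, are immediate early genes, transcribed within minutes of growth factor, calcium or stress signals, and Fos is a common marker of recent neuronal activity. Small Maf proteins lack an activation domain. They bind DNA as repressors in pairs of their own, or together with cap'n'collar factors such as NRF2 at antioxidant response elements.

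The regulatory letters near the start of 3 of these genes are shown first, since the dimers bind such sites in each other's genes. RefSeq promoter windows of assembly GRCm38.p6, from 250 bases before to 50 bases after an annotated start, were found for 9 of the 10 genes, in 11 windows, with none matched for Fosl1. The 250 bases before the start are printed for Jun, the member with the highest gene ratio below, for Fos, the prototype immediate early subunit, and for the Maff start whose window holds a whole cAMP response element. Capitals mark TGACNTCA, the half-site TGACG and TATAAA.
Jun, chr4:95052223-95052472, minus strand: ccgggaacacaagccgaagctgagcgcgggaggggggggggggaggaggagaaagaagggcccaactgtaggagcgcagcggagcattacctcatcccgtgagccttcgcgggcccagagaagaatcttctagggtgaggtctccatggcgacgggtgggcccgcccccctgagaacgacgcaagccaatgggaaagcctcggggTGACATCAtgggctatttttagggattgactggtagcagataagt
Fos, chr12:85473640-85473889, plus strand: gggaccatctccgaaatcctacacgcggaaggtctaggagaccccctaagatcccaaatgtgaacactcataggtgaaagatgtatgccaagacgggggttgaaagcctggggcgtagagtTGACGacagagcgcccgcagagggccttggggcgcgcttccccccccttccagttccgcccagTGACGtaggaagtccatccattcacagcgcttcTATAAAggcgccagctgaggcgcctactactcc
Maff, chr15:79347270-79347519, plus strand: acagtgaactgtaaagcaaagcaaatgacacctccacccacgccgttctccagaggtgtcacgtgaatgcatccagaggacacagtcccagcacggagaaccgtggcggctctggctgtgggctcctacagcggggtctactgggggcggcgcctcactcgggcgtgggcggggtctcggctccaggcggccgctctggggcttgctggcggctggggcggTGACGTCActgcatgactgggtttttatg

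The Jun window holds TGACATCA at positions -45 to -38 from the annotated start, the letters of a well-described binding site of Jun and ATF2 dimers. The same letters stand at -45 to -38 in the window of a further Maff start, and the printed Maff window holds TGACGTCA at -29 to -22. The Fos window holds the half-site TGACG at -129 to -125 and at -66 to -62, and TATAAA at -33 to -28. Searched on both strands, TGACNTCA, which includes TGACGTCA, was in 3 of the 11 member windows and in 8.83% of all 32851 windows of this length. The half-site TGACG, which TGACGTCA also contains, was in 7 of the 11 and in 20.8% of all windows. The antioxidant response core TGACNNNGC was in 3 of the 11, one each of Mafk, Mafg and Maff, and in 12.4% of all. The broad AP-1 pattern TGANTCA was in 0 of the 11 and in 7.81% of all. The CArG box, the site of serum response factor, was in 0 of the 11 and in 1.63% of all. A match is a match of letters only, and a window without one says nothing of sites outside it.

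The labels and the cells were checked before the members were read. Tmem132a had a signal of 1825.5 with the control and 435.6 in the sample labelled with its siRNA, 23.9% of the control. The free description of that sample names the control siRNA, while its title and treatment name Tmem132a, and the grouping follows the title. Signals are MAS5 values on a linear scale, with a trimmed mean of 500.003 on both arrays. Of 15 sympathetic and neuroblastoma markers with a probe set, 13 passed the signal filter (a mean over both arrays of at least 77.25), and Nefl and Nefm did not. All 13 had a ratio below 0, from -0.51 to -0.06, where 5143 of all 10678 genes measured did. The part of these markers in the results below was not tested. None of 6 fibroblast and none of 5 macrophage and lymphocyte markers passed, and of 6 markers of epithelium and endothelium Epcam did, at 1.04. These 6 together summed to only 213.8 with the control and 353.1 with the Tmem132a siRNA, by the brightest probe set of each, so the Epcam reading is dim. All ratios are log2 of the Tmem132a siRNA signal over the control siRNA signal, and in bulk RNA fewer cells with a transcript and less transcript per cell cannot be told apart.

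AP-1 subunits differed little between the arrays, and most of those measured were slightly higher with the Tmem132a siRNA. Of the 10 genes, 8 had a probe set past the filter, and 6 of these 8 had a ratio above 0, where 51.8% of 10678 genes did. The median over the 8 was 0.29, against 0.02 over all genes, and the range was -0.15 to 0.46. None of the 8 was 1.5-fold higher, a size that 8.83% of all genes reached, and none 1.5-fold lower, which 9.1% of genes were. At 2-fold, which 2.1% of genes exceeded upward and 2.44% downward, the counts were likewise 0 and 0. The 3 Jun genes had a median of 0.40, the 3 small Maf genes one of 0.05, and the Fos family rests on 2 genes of opposite sign.

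**Figure D1:**
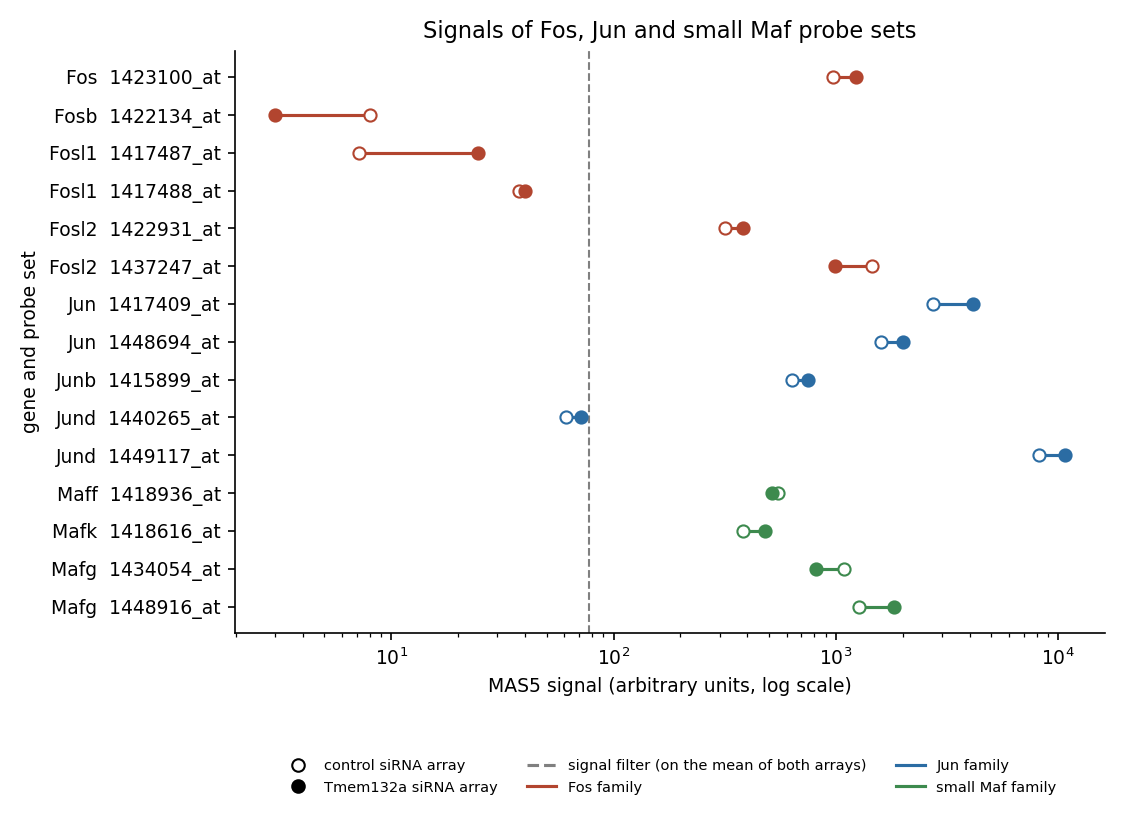
MAS5 signal (log axis) of the 15 probe sets on the control siRNA array (open circles) and the Tmem132a siRNA array (filled circles), coloured by family, with the signal filter of 77.25 as a dashed line. The 4 probe sets left of the line are those of Fosb and Fosl1 and the dim one of Jund, and every Jun family line runs to the right.

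Jun, the founding subunit and a target of the JNK kinases, was read by 2 probe sets. By 1417409_at, the signal was 2735.1 in the control sample and 4118.2 after the Tmem132a siRNA, a log2 ratio of 0.59. The other, 1448694_at, had 1593.7 and 1999.5, a ratio of 0.33. Both were thus higher on the Tmem132a siRNA array, and the first was the only one past 1.5-fold among the 11 member probe sets past the filter. The probe sets lay 0.26 apart, close to the median distance of 0.29 over 2904 genes with 2 probe sets past the filter. The mean over both probe sets gave Jun its gene ratio of 0.46, the highest of the family, and 1482 of 10678 genes (13.9%) had a ratio at least as high.

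Jund, a subunit that most cells express without stimulation, had a signal of 8167.7 on the control array and 10745.3 on the other by its bright probe set 1449117_at, a ratio of 0.40. Its second probe set, 1440265_at, did not pass the filter and had 61.1 and 71.5. Both pairs of signals ran the same way, although the dim pair is too low to be compared. Junb, an immediate early subunit that often opposes Jun, had 632.4 and 749.9 by 1415899_at, a ratio of 0.25. All 4 Jun family probe sets past the filter, 2 of them of Jun, were higher on the Tmem132a siRNA array, by 1.19-fold to 1.51-fold. Of all 22519 probe sets past the filter, 50.7% had a ratio above 0.

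Among the Fos genes only Fos and Fosl2 were measurable. Fos, read by 1423100_at, gave 970.7 in the control and 1235.8 after the Tmem132a siRNA, a ratio of 0.35 or 1.27-fold. Fosl2, which encodes FRA2, gave opposite answers by its 2 probe sets. Its brighter one, 1437247_at, went from 1453.3 to 989.1, a ratio of -0.56, while 1422931_at went from 318.7 to 382.1, a ratio of 0.26. The gene ratio of -0.15 is the mean of a lower and a higher reading and describes neither. The sources used here do not say which part of the transcript each probe set reads. Fosb had signals of 8 and 3, both below the floor of 14.5 that was set on low values. Fosl1, which encodes FRA1, had 37.7 and 40.1 by 1417488_at, and 7.2 and 24.5 by 1417487_at. These readings are too dim for a ratio, and they do not show whether the cells expressed either gene.

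The small Maf genes had no common direction. Mafk gave 382.2 in the control and 479.5 after the Tmem132a siRNA, a ratio of 0.33. Maff, which stress and growth signals induce in many cells, had 551.7 and 516.4, a ratio of -0.10. Mafg again had probe sets of opposite sign. Probe set 1448916_at went from 1275.4 to 1829.6, a ratio of 0.52, and 1434054_at from 1090.1 to 814.6, a ratio of -0.42. Its gene ratio of 0.05 thus averages readings that lay 0.94 apart.

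How far such readings can stray was seen in other genes. Of the 2904 genes with 2 probe sets, 995 (34.3%) had probe sets of opposite sign, 352 (12.1%) lay as far apart as those of Fosl2 (0.82), and 232 (7.99%) as far apart as those of Mafg. Over 5072 genes with several probe sets, their SD around the gene mean was 0.39. The ratios of Fos, Junb, Mafk and Maff, each from a single probe set, were smaller than this SD, and that of Jund, also from 1 probe set past the filter, was close to it. The SD comes from the same pair of RNA samples, so it does not include variation between cultures, and probe sets of 1 gene may read different transcript forms, which was not tested.

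**Figure D2:**
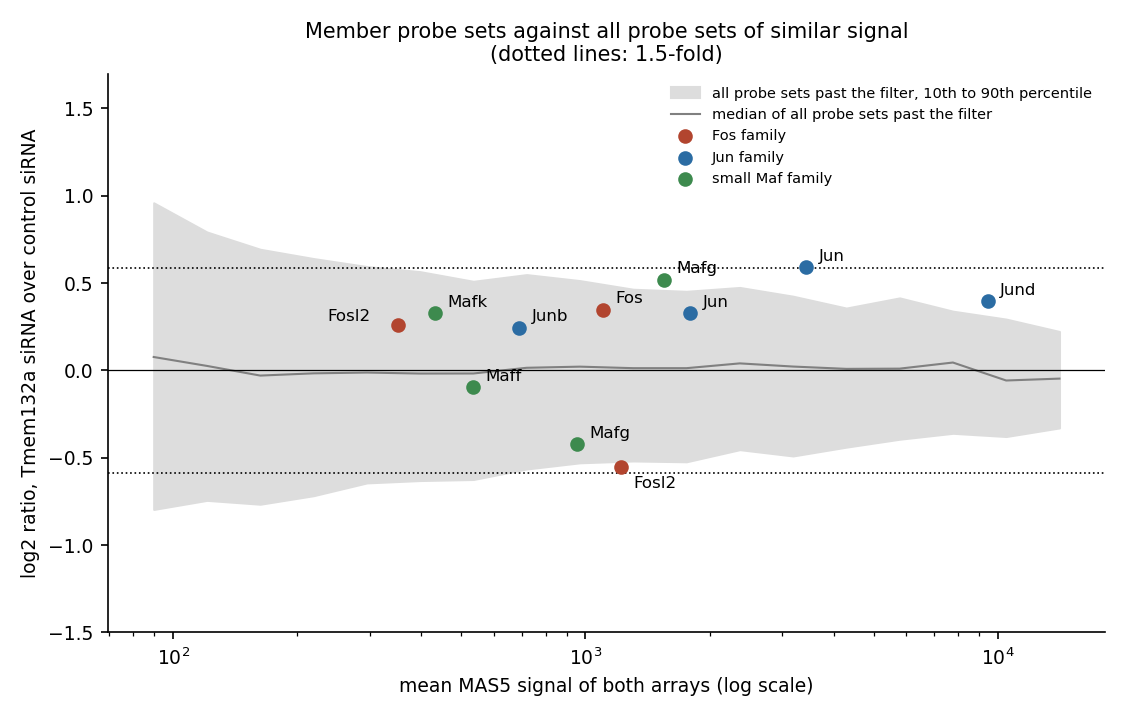
Log2 ratio of the Tmem132a siRNA signal over the control signal for the 11 member probe sets past the filter against mean MAS5 signal (log axis), over the 10th to 90th percentile (grey) and median (line) of all 22519 probe sets past the filter in bins of signal. The brighter Jun probe set at 0.59, that of Jund at 0.40 and the higher Mafg probe set at 0.52 lie above the grey band, and the lower Fosl2 probe set at -0.56 lies below it.

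Bright probe sets varied less between the arrays than dim ones, so each reading was also set beside all probe sets within 2-fold of its mean signal. For the brighter Jun probe set, 150 of 3531 such probe sets (4.25%) had a ratio as high. For that of Jund the share was 97 of 1357 (7.15%), for the higher Mafg probe set 493 of 5834 (8.45%) and for Fos 1275 of 6646 (19.2%). On the other side, 587 of 6380 (9.20%) were as low as the lower Fosl2 probe set. Junb (27.8% as high), Mafk (22.0% as high), the higher Fosl2 probe set (27.0%), the second Jun probe set (19.3%), the lower Mafg probe set (15.4% as low) and Maff (41.5% as low) lay further inside the spread. Over the 11 member probe sets past the filter, 8 had a ratio above 0 and 3 below, where 50.7% of 22519 were above 0. One was at least 1.5-fold higher, which 9.99% of probe sets were, and 0 were 1.5-fold lower, which 11% were. These shares describe where the members lie on this pair of arrays.

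The bZIP proteins that pair with Fos, Jun or small Maf, or bind the same sites, were measured next. Of 17 with a probe set, 11 passed the filter, with a median of 0.23 and 7 above 0 (51.8% of all genes were). Past 2-fold, 2 were higher (2.1% of all genes), and 0 were 1.5-fold lower (9.1% of all genes). With no signal filter, 6 of the 17 were 1.5-fold higher, against 16.0% of all genes in that setting, and 1 was lower, against 12.1%. Atf3, a stress-induced repressor that pairs with Jun, had signals of 495.4 and 1299.9, a ratio of 1.39. Crem, which encodes cAMP response element modulators, had a ratio of 1.17 over probe sets at 0.81 and 1.53. Its brightest probe set, the one at 0.81, had dim signals of 125.4 and 220.4. With no signal filter, 4 probe sets entered and the ratio of Crem was 0.26. When 79.2 was added to all signals and no floor was set, the ratio was 0.66. Crem was thus not past 2-fold by its brightest probe set or in these settings, and was past it in the others that measured it. Jdp2, a Jun-binding repressor, had 1383.5 and 1778 (ratio 0.36). Nfe2l2, which encodes NRF2, the activating partner of small Maf, had 1327.4 and 1628 (0.29), and Bach1, their repressing partner, had a mean ratio of -0.40 over probe sets at -0.69 and -0.10, the brightest of them the one near 0 (1414.3 and 1318.3). Bach2 in the same list went the other way from Bach1, at 0.23 over 3 probe sets from -0.20 to 0.57. Jdp2, Nfe2l2, Bach1 and Bach2 are named for their roles and were picked after their values were seen.

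Kinases and factors that act on the Fos and Jun genes or proteins had no common shift. Of 24 genes 22 passed the filter, with a median of -0.07 and 8 above 0 (36.4%, against 51.8% of all genes). At 1.5-fold, 2 were higher (9.09%, against 8.83% of all genes) and 1 was lower (4.55%, against 9.1%). Elk4 and Elk1 encode ternary complex factors, which act with serum response factor on the Fos promoter. The ratio of Elk4 was 0.72, from probe sets at 0.19 and 1.25, and that of Elk1 was -0.69, from -1.21 and -0.17. Neither gene was past 1.5-fold in every setting tried, with Elk4 at 0.19 by its brightest probe set and Elk1 at -0.39 when 79.2 was added to all signals as a pseudocount and no floor was set. Srf, the gene of serum response factor, had a mean ratio of -0.52 from probe sets that disagreed, one at -1.09 (1623.7 and 761.5) and one at 0.05. Of the JNK genes, Mapk10 had a ratio of 0.60, Mapk9 one of 0.18 and Mapk8 one of 0.02. Srf and the JNK genes are named for their roles, with their values known.

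Genes described as AP-1 targets were near the level of all genes. Of 26 with a probe set, 14 passed the filter, with a median of -0.03, and with 5 above 0 (35.7%, against 51.8% of all genes). At 1.5-fold, 1 was higher (7.14%, against 8.83% of all genes) and 0 were lower (9.1% of all genes were). The most distant from 0 were Mt2, a metallothionein, at 0.68 from dim signals of 79.4 and 126.8, and Dnmt1, the maintenance DNA methyltransferase, at -0.49 over 3 probe sets. With the same pseudocount Mt2 was at 0.38 and the count of 1 became 0. With no signal filter, by contrast, 6 of the 26 targets were 1.5-fold higher, against 16.0% of all genes in that setting. There, 3 were lower, against 12.1% of all genes. With each gene read by its brightest probe set 1 was lower, against 10.1% of all genes. Many classic targets, the metalloproteinase genes Mmp3, Mmp9, Mmp10 and Mmp13 among them, were below the filter.

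Targets of NRF2 with small Maf had a median of 0.15 over 16 of 17 genes, with 11 above 0 (68.8%, against 51.8% of all genes). At 1.5-fold, 3 were higher (18.8%, against 8.83% of all genes) and 2 lower (12.5%, against 9.1%). Srxn1, which encodes sulfiredoxin, was at 1.67 over 3 probe sets, and Blvrb, biliverdin reductase B, at -0.81 from 519.6 to 296. Genes of AP-1 protein partners and degradation had a median of 0.16 over 11 genes, 7 of them above 0 (63.6%). Past 1.5-fold there were 0 either way, where 8.83% of all genes were higher and 9.1% lower. Of the 11, Fbxw7, the ubiquitin ligase subunit that recognises phosphorylated Jun, was at 0.40. Det1, an adaptor of the COP1 ligase, was at 0.36 over probe sets at -0.14 and 0.87, and its ratio was -0.14 by the brightest.

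The other immediate early genes had a median of 0.26 over 26 of 29 genes, close to the 0.29 of the AP-1 subunits. Of the 26, 17 were above 0 (65.4%, against 51.8% of all genes). At 1.5-fold, 2 were higher (7.69%, against 8.83% of all genes) and 1 lower (3.85%, against 9.1%). The 2 higher ones were also past 2-fold (2.1% of all genes were). These were Egr1, a zinc finger factor induced with Fos, at 1.27, and Atf3, which also stands among the bZIP partners. Without probe sets that can share sequence (x, s and a kinds), the median of this list was 0.14.

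**Figure D3:**
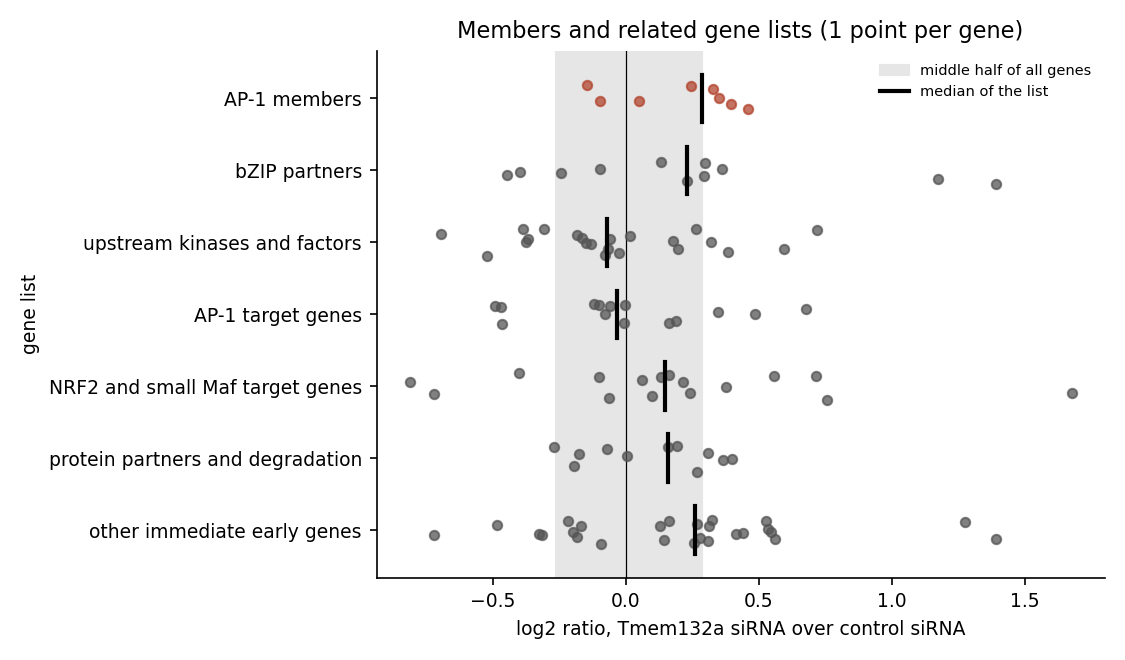
Log2 ratio of the Tmem132a siRNA signal over the control signal for each gene past the filter (points) in the AP-1 subunits and 6 related lists, with the median of each list (bars) over the middle 50% of all genes (grey). The 8 AP-1 subunits lie between -0.15 and 0.46, while Atf3, Crem, Srxn1 and Egr1 lie beyond 1.

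Genes with letters of AP-1 or CREB sites in a promoter window were also read as a group, among 8713 measured genes with a window. Those with TGANTCA, which also takes in letters outside the AP-1 consensus, had a median of 0.08 over 514 genes, against 0.01 for all 8713. At 1.5-fold, 58 of the 514 (11.3%) were higher, against 8.77% of the 8713, and 47 (9.14%) were lower, against 8.93%. Those with TGACGTCA had a median of 0.10 over 340 genes, with 58.8% above 0, against 51.6% of the 8713. Of the 340, 29 (8.53%) were 1.5-fold higher and 14 (4.12%) were 1.5-fold lower. With no signal filter, the median of the TGANTCA genes was 0.01, against 0 for all genes with a window.

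For each of the 8 measured members, the sign of the gene ratio was the same in every one of the 10 other settings that gave it a value. Several of these settings could hardly move a member, so the agreement is partly built in. The arrays already shared 1 trimmed mean, and the median ratio over probe sets was near 0. The measured members lay above the floor, and all their probe sets were plain _at. For Fosl2 and Mafg the mean is over probe sets of opposite sign, so its sign says little. Fos ran from 0.32 to 0.35, Jun from 0.45 to 0.59, Junb from 0.22 to 0.25, Jund from 0.31 to 0.44 and Mafk from 0.28 to 0.35. Maff stayed between -0.10 and -0.07. The settings that use fewer probe sets decided the value of 2 genes. Fosl2 was at -0.56 by its brightest probe set, and also with the filter at the 75th percentile, where the dimmer one drops out. Mafg was at 0.52 by its brightest probe set, against 0.05 for the mean.

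**Figure D4:**
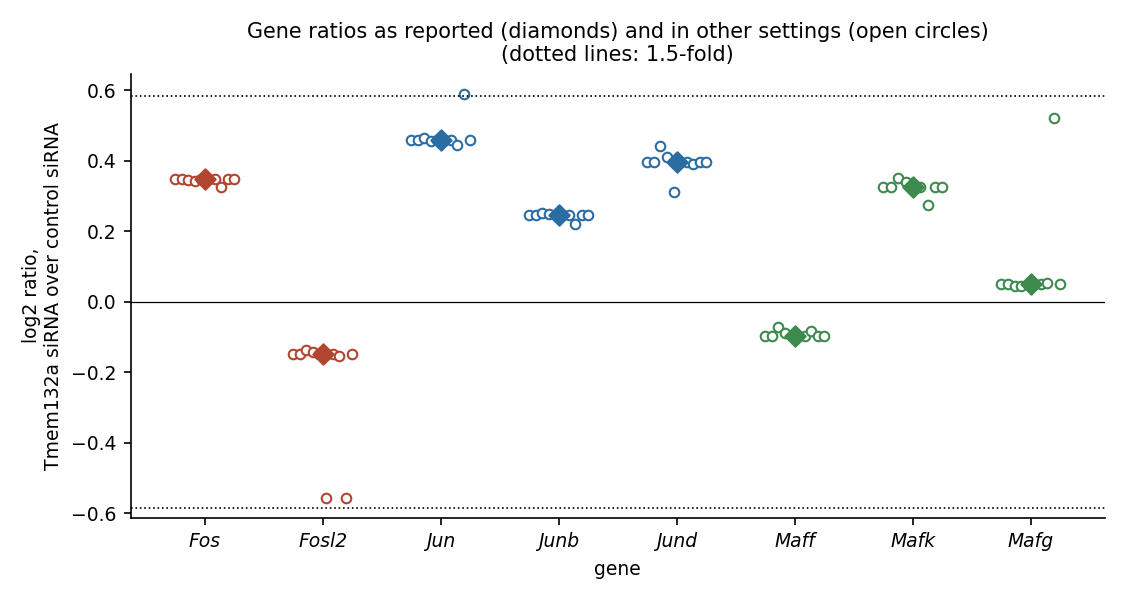
Log2 ratio of the Tmem132a siRNA signal over the control signal for the 8 measured AP-1 genes as reported (diamonds) and in the other settings (open circles). The circles lie close to the diamonds for Fos, Junb, Jund, Maff and Mafk, and apart for Fosl2 (-0.56), Mafg (0.52) and Jun (0.59) where fewer probe sets were used.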

How the data were processed

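The deposited values are MAS5 signal intensity of each probe set, linear and made by the authors, per the submitters' processing notes and the series text, with no version in the sources used here. Arrays were set to 1 trimmed mean (2% of values trimmed at each end), which left the signals nearly as deposited. Of 45101 probe sets, 64 controls were left out. Genes were named from the platform annotation, using probe sets with 1 symbol. Signals below the 20th percentile (14.5) were raised to it, probe sets with a mean below the median (77.25) were left out (22519 passed), and log2 ratios were averaged per gene. The samples were grouped by title. No test was made, since each group was 1 array. All members are named, and of each list the genes past 2-fold or, where fewer than 2 were, the 2 most distant from 0. Further genes are marked in the text. Members and lists were chosen with earlier results of these data known. The 10 other settings covered scaling, filter, floor and choice of probe sets. The scripts were tested on simulated data with planted changes larger than 2-fold, so that test does not cover changes as small as those of the members. Python 3.11.15, numpy 2.4.6, pandas 2.3.3, statsmodels 0.14.6 and matplotlib 3.10.9 were used.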

Additional observations from a re-analysis of the deposited data

How the results depend on the processing

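Counts of AP-1 genes past 1.5-fold or 2-fold were 0 in each direction in all 10 other settings except 1: with each gene read by its brightest probe set, 1 gene, Jun, was at least 1.5-fold higher, because its dimmer probe set is then not used. As said above, some of the 10 settings could hardly move a member. The median over the measured AP-1 genes ran from 0.25 (75th percentile filter) to 0.34 (brightest probe set). Of 364 further values (single genes and lists under these settings), 327 moved by less than the probe-set SD divided by the square root of the number of probe sets (for medians, of genes) or, for counts, by at most 1.5 times. A further 37 moved by more, and 0 genes past 1.5-fold turned their sign. The median of the upstream kinases and factors was 0.07 with the 75th percentile filter, against -0.07. Fosb and Fosl1 had signals too low to be read against background.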

Other observations

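The CArG box, the site of serum response factor, which the promoter windows of the AP-1 genes did not hold, was in a window of 138 measured genes. Of these, 54 (39.1%) had a ratio above 0, against 51.6% of 8713 measured genes with a window. At 1.5-fold, 4 (2.90%) were higher, against 8.77% of all, and 21 (15.2%) lower, against 8.93%. The median was -0.07, against 0.01. In the 10 other settings the share above 0 was between 36.7% and 39.9%. At 2-fold, 0 of the 138 were higher and 8 lower, against 170 higher and 213 lower of the 8713. The 8 lower genes were named after their values were seen. Among them were the contractile genes Myl9 (3346 and 478.9 on the control and Tmem132a siRNA arrays), Cnn2 (9001.9 and 3386.6) and Acta1 (358.4 and 154.3), and further Selenbp1, Pdgfc, Tyms, Hook2 and Zfp619.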
